A study of Mus musculus and Rattus norvegicus with 21 samples.

Results

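The replication-dependent histone genes of the mouse were examined in chromatin immunoprecipitation sequencing (ChIP-seq) of thyroid glands. They were chosen by name alone, as all protein-coding genes whose symbol begins with H2ac, H2bc, H3c or H4c followed by a number, and this gave 57 of the 21000 protein-coding genes with a curated RefSeq transcript on GRCm38, the assembly also called mm10. The set was proposed with earlier results of these data in view, but no measured value entered the choice of its members. It holds 17 H2A, 16 H2B, 12 H3 and 12 H4 genes. The linker histone genes (H1) that lie between them, and the histone genes outside the main clusters that carry other symbols, were not members.

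Histone H3 trimethylated at lysine 4 (H3K4me3), a mark of active promoters, and at lysine 27 (H3K27me3), the Polycomb mark, were profiled in thyroids of C57BL/6 wild-type (WT) and Glis3 knockout (Glis3KO) mice, 1 month of age per the labels, on a normal diet (ND, NIH-31) or a low iodide diet (LID, TD.95125). The labels give the knockout genotype as B6.Glis3<tm2(mCherry)Amj>, and the study's methods name another allele number. NKX2.1 and PAX8, transcription factors (TFs) of the follicular cell, were profiled in glands labelled as WT on the LID, whereas the study's methods describe older Glis3-EGFP mice, which make a GLIS3-EGFP fusion protein, longer on the LID. Factor peaks and histone peaks may therefore come from different mice. Binding of GLIS3 itself, a TF needed for thyroid hormone biosynthesis, was not analysed here. Each group was represented by 1 library, so no difference between groups could be set against the spread between replicates and no test was made.

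Replication-dependent histone genes encode the bulk of the H2A, H2B, H3 and H4 on which new DNA is packed, and they are transcribed mainly during S phase, when NPAT gathers the transcription machinery at their clusters. Most of their mRNAs end in a stem-loop bound by SLBP in place of a poly(A) tail. Many H2A and H2B genes are transcribed away from each other out of a shared promoter. The genes exist in many near-identical copies, so reads from their coding sequences often match more than 1 place in the genome. The thyroid gland divides slowly, and thyroid-stimulating hormone, which a low iodide diet raises, drives the growth of its follicular cells.

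The members lay on chromosomes 13 (47 genes) and 3 (10 genes). Start sites separated by more than 100 kb were placed in different blocks, and this gave 5. Block 1 on chromosome 13 (first to last start site chr13:21716183-21833475) held 16 genes from H2bc13 to H2ac24. Block 2 (chr13:22035643-22043198) held 5, namely H2ac12, H2bc12, H4c9, H2ac11 and H2bc11. Block 3 (chr13:23531044-23762386) held 24 from H4c8 to H3c1, with 5 other protein-coding genes among them. Block 4 (chr13:23934156-23934437) held only H2bc1 and H2ac1, long known as the testis-type genes Th2b and Th2a. Block 5 on chromosome 3 (chr3:96219885-96269700) held 10 from H2ac21 to H2bc18. In 11 pairs an H2A and an H2B gene faced away from each other with start sites 164 to 281 bp apart.

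Promoter sequences of 7 members of block 3 are shown because they span the states described below. They are the 250 bases before the transcription start site (TSS) as given by RefSeq for GRCm38.p6, written 5′ to 3′ on the strand of the gene. H2ac6, whose promoter is shared with H2bc4, and H3c6 carried H3K4me3 in both WT libraries and in neither Glis3KO library and had NKX2.1 peaks. H2bc8 and H2bc9 carried H3K4me3 in 1 library each and had NKX2.1 peaks. H4c2 and H4c4 carried H3K4me3 in all 4 libraries, H4c2 with and H4c4 without an NKX2.1 peak. H2bc7 had no peak of either mark or either factor within 1 kb. Capitals mark every match, on either strand, to the TATA box (TATAAA), the CCAAT box (CCAAT), the octamer (ATTTGCAT), an NKX2.1 motif (CACTNNAG) or a PAX8 motif (GTCANGC).
H2ac6 (chr13:23683960-23684209, minus strand): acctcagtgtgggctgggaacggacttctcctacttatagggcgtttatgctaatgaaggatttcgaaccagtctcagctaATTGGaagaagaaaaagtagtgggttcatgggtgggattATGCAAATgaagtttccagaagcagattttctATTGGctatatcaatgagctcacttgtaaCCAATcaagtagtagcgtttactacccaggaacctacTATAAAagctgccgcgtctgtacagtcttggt
H3c6 (chr13:23562386-23562635, minus strand): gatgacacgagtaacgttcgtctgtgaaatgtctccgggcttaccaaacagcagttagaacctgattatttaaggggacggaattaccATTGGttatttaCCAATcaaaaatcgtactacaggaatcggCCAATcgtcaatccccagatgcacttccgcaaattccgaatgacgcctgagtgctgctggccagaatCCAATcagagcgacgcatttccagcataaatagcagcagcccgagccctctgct
H2bc8 (chr13:23571150-23571399, plus strand): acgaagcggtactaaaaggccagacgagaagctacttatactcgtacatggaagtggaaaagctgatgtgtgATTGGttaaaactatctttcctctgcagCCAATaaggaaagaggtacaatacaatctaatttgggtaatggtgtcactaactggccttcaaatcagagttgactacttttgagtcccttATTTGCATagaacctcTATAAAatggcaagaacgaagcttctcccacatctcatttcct
H2bc9 (chr13:23543445-23543694, minus strand): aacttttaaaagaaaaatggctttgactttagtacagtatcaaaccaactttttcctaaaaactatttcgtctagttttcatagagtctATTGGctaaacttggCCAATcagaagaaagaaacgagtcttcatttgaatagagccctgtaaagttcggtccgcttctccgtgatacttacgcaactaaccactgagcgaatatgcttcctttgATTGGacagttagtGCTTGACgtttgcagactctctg
H4c2 (chr13:23756687-23756936, plus strand): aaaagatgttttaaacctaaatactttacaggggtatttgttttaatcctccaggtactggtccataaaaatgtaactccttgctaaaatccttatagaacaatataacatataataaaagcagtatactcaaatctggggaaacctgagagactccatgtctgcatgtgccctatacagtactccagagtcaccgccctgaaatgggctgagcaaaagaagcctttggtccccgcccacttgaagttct
H4c4 (chr13:23581318-23581567, plus strand): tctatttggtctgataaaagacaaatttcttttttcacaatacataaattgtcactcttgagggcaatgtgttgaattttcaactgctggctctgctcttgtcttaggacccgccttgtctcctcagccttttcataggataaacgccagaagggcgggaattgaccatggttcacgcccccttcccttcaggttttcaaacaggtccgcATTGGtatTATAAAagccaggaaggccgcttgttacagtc
H2bc7 (chr13:23574208-23574457, minus strand): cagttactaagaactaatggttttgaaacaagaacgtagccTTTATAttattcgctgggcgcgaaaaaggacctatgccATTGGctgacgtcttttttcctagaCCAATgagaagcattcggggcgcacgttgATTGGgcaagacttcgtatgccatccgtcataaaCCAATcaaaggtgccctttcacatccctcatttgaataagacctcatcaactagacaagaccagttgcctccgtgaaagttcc
The H2ac6 promoter held a TATA box at -32, counting the TSS as 0, CCAAT boxes at -169, -98 and -69 and an octamer at -130. In H2bc8 the TATA box lay at -43, the octamer at -59 and the CCAAT boxes at -178 and -150. Both H4 promoters differed from these, with no octamer, a TATA box at -32 and a CCAAT box at -40 in H4c4, and no match to any of the motifs in H4c2. None of the 7 held the NKX2.1 motif, and the only PAX8 motif was at -23 in H2bc9.

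Promoters could be matched for 51 of the 57 members and for 16483 of all 21000 genes, and motifs were counted in them from 250 bases before to 50 after the TSS (300 bases). A CCAAT box was present in 84.3% of member promoters (43 of 51) against 39.6% of all promoters, and a TATA box in 58.8% (30 of 51) against 13.3%. The octamer, a binding site of POU2F1 in H2B promoters, occurred in 23.5% (12 of 51) against 1.74%. Its matches were in 6 H2A and 6 H2B promoters and in no H3 or H4 promoter. CCAAT boxes were found in all 17 H2A, 13 H2B and 10 H3 promoters matched but in 3 of 11 H4 promoters (27.3%). The NKX2.1 motif occurred in 4 of 51 (7.84%, against 14.8% of all promoters) and the PAX8 motif likewise in 4 (7.84%, against 11.0%). Member promoters had a median GC content of 45.0% and 10 CpG dinucleotides, against 56.7% and 14 over all promoters.

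Because only uniquely mapped reads were kept by the authors, the share of 50-base stretches (50-mers) that occur once in the genome was computed for each window of 1 kb either side of a TSS. Its median was 74.8% over the members and 100% over all genes. H2bc23, H2ac23 and H2ac24 had no unique 50-mer at all, and H4c17 and H4c18 had 7.02% and 8.04%. On chromosome 3 the near-identical H3c14 and H3c15 had 21.5% and 22.4%, and H2ac18 and H2ac19 had 45.6% and 47.8%. Within the windows the loss was uneven. Around 250 bp downstream of the TSS, in the coding sequence, 16.6% of 50-mers were unique, whereas from 250 bp upstream to the TSS it was 83.8% to 89.0%. The promoters of most members could thus be read while their coding sequences mostly could not, and an empty window means least for the 9 members under 50%.

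The share of histone genes with H3K4me3 was close to that of all genes in both WT libraries and below it in both Glis3KO libraries. In WT-ND 37 of 57 members (64.9%) had a peak overlapping the window, against 60.7% of all protein-coding genes. In Glis3KO-ND it was 29 (50.9%) against 61.0%. In WT-LID it was 37 (64.9%) against 61.5%, and in Glis3KO-LID 27 (47.4%) against 58.6%. The WT shares fell below those of all genes when the window was 500 bp either side, with 59.6% against 60.0% in WT-ND and 56.1% against 60.9% in WT-LID, and the Glis3KO shares were below at every window tried. Sets of 4 values are given from here on in the order WT and Glis3KO on the ND, then WT and Glis3KO on the LID. The mean covered length over the 57 members was 685, 476, 658 and 412 bp, and over all genes it was 865, 861, 888 and 785 bp. Both Glis3KO libraries thus lay below both WT libraries for the members, and the Glis3KO-LID library was the lowest for all genes too. Of the members 45 were marked in at least 1 library and 21 in all 4. That is 46.7% of the marked members, against 85.4% over all genes marked in any library.

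**Figure D1:**
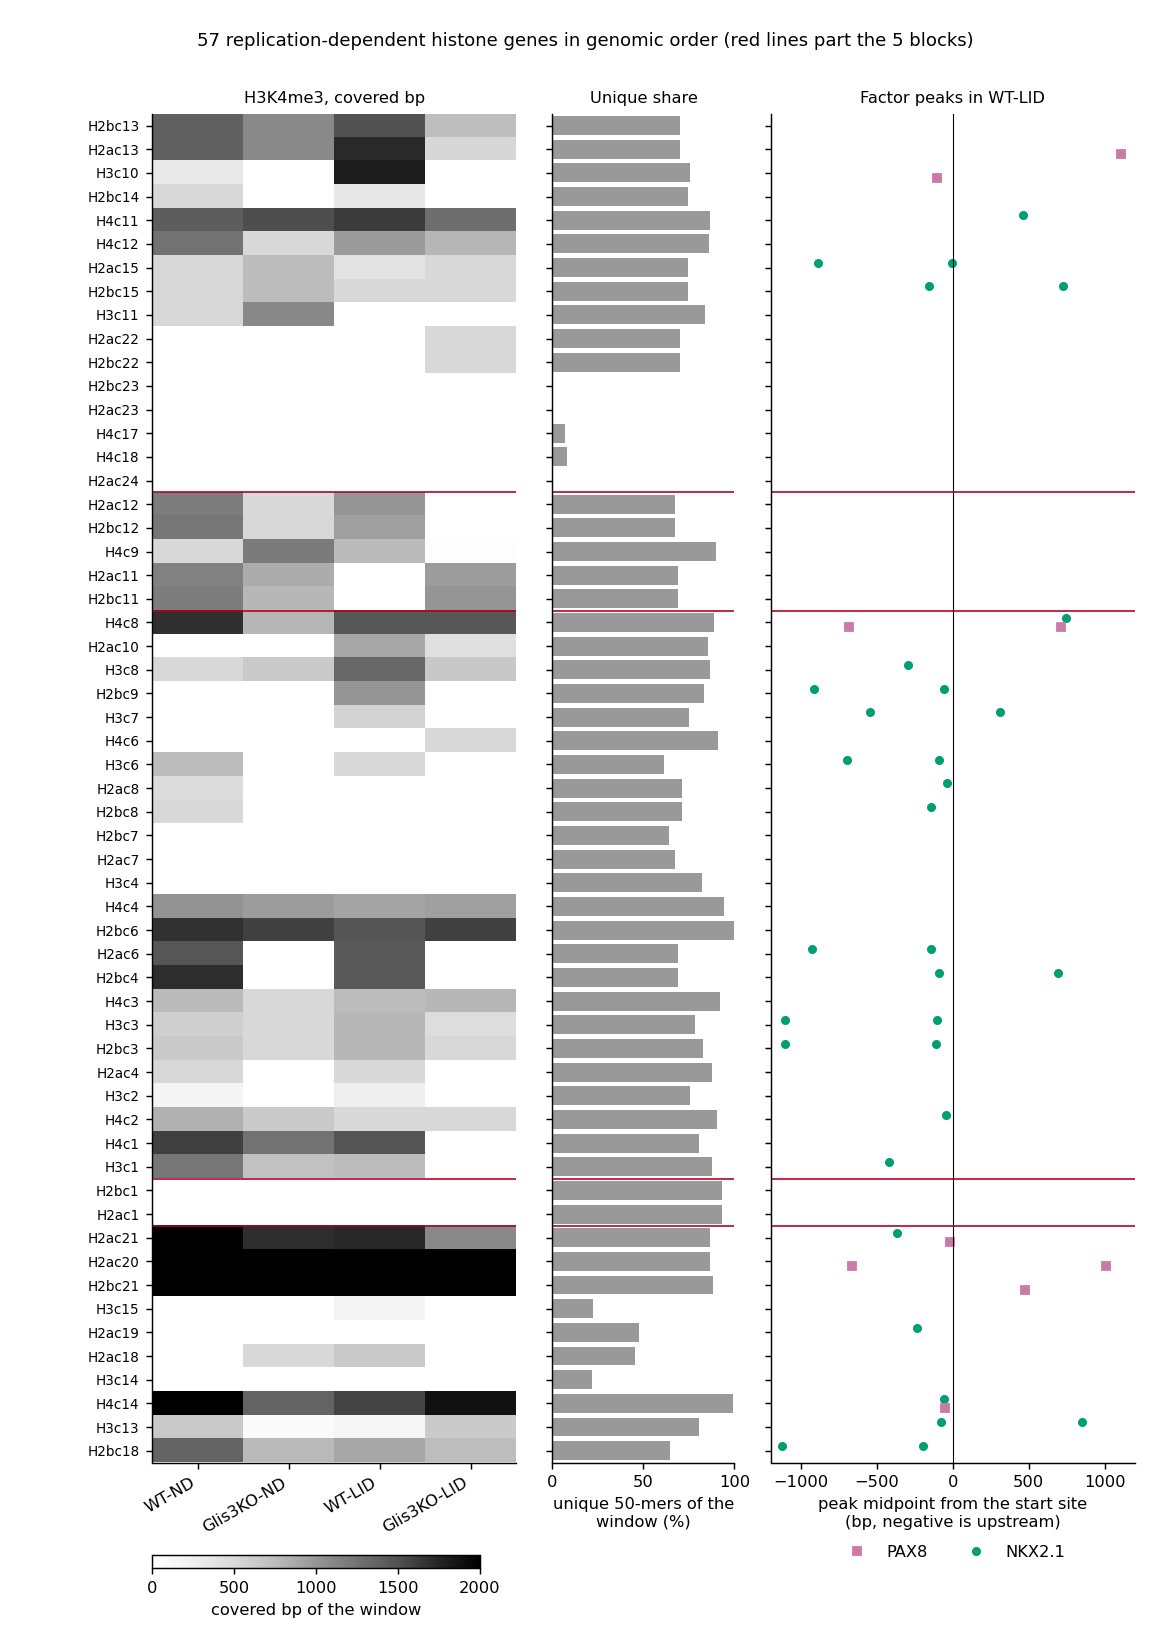
Each row is 1 of the 57 histone genes in genomic order, with red lines between the 5 blocks. The left panel shows H3K4me3 covered bases of the window in each of the 4 libraries from 0 (white) to the whole window (black), the middle panel the percent of unique 50-mers, and the right panel the midpoints of NKX2.1 (circles) and PAX8 (squares) peaks that overlap the window, in bp from the TSS. H2ac20 and H2bc21 are black in every library, and the run from H2bc23 to H2ac24 is empty where almost no 50-mer is unique.

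Block 5 on chromosome 3 held the only 2 members covered over the whole window in all 4 libraries. The divergent pair H2ac20 and H2bc21, encoding H2A and H2B, was covered over the whole window in every library by 1 peak, which reached over the neighbouring H2ac21 and was 3764, 3071, 3039 and 2773 bp long. H2ac21 was covered over its whole window in WT-ND, over 1698 bp in Glis3KO-ND and over 1732 and 1090 bp in the WT and Glis3KO libraries of the LID. H4c14, the H4 gene of the block and with 99.2% unique 50-mers among the best readable members, was covered over its whole window in WT-ND and over 1364, 1572 and 1880 bp in the others, with no order by genotype. The other end of the block was less covered. H2bc18 had 1356, 772, 885 and 746 bp. H3c13 had 636, 76, 146 and 628 bp, high in WT-ND and Glis3KO-LID and low in the other two. H2ac18 was marked in Glis3KO-ND (501 bp) and WT-LID (638 bp) only, H3c15 only in WT-LID (172 bp), and H2ac19 and H3c14 in no library. These last 4 are the members of the block with under 50% unique 50-mers.

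Block 3, the largest, held both steadily marked and intermittently marked genes. H2bc6 was among its most covered, with 1680, 1592, 1474 and 1593 bp. These values are for its most upstream TSS, far from the histone gene body, and at the start site next to the gene body it had the whole window in WT-ND and 1502, 1936 and 1818 bp in the others. In every library the peak at the upstream TSS also covered the TSS of the linker gene H1f4. The H4 genes H4c8 (1690, 792, 1457 and 1458 bp), H4c2 (824, 632, 501 and 501 bp), H4c3 and H4c4 were marked in all 4 libraries, and H4c3 and H4c4 ranged from 501 to 1028 bp. H3c8 had 501, 628, 1335 and 655 bp, highest in WT-LID. H3c3 had 593, 501, 785 and 449 bp and its neighbour H2bc3 had 626, 501, 785 and 501 bp, lower in both Glis3KO libraries.

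The sharpest contrast between genotypes was at the divergent pair H2ac6 and H2bc4. H2ac6 was covered over 1462 bp in WT-ND and 1439 bp in WT-LID and over 0 bp in both Glis3KO libraries. H2bc4 had 1702 bp in WT-ND and 1439 bp in WT-LID, and 0 bp in both Glis3KO libraries. In WT-ND a single peak of 2520 bp overlapped both genes (chr13:23683498-23686017), and in WT-LID 2 peaks of 853 and 2024 bp lay on either side of the shared promoter. The H3 gene H3c6 had 752 bp in WT-ND, 501 bp in WT-LID and 0 bp in both Glis3KO libraries. H2ac4 (501 and 501 bp) and H3c2 (179 and 259 bp), with these values in the 2 WT libraries, were likewise without a peak in both Glis3KO libraries. At the end of the block H4c1 had 1596, 1254, 1481 and 0 bp, and its neighbour H3c1 had 1226, 706, 752 and 0 bp. The peak shared by these 2 genes was missing only from the Glis3KO-LID list. On the ND the H3c1 values also include part of a second peak, which lay over the linker gene H1f1. That peak was 1624 bp wide in WT-ND and 902 bp in Glis3KO-ND.

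Several block 3 genes were marked in 1 or 2 libraries with no order by genotype. H2bc9 (1002 bp) and H3c7 (552 bp) were marked in WT-LID only. H2ac10 had 884 bp in WT-LID and 431 bp in Glis3KO-LID. The divergent pair H2ac8 and H2bc8 was marked in WT-ND only (464 and 501 bp), and H4c6 in Glis3KO-LID only (501 bp). The narrowest H3K4me3 peak in the lists is 501 bp wide. H2bc9 and H3c7 lay under 2 peaks of that width, and H4c6 and the pair H2ac8 and H2bc8 under 1. H2bc7, H2ac7 and H3c4, which lie side by side, had no H3K4me3 peak in any library, with 63.8%, 67.5% and 81.9% of their 50-mers unique.

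In block 1 the best covered genes were H4c11, with 1413, 1521, 1624 and 1285 bp, and the divergent pair H2bc13 and H2ac13. H2ac13 had 1386, 1090, 1722 and 510 bp and H2bc13 had 1386, 1091, 1493 and 739 bp, lower in both Glis3KO libraries. The next gene, H3c10, had 323 bp in WT-ND and 1799 bp in WT-LID, where a peak of 2736 bp ran from H2bc13 across it, and 0 bp in both Glis3KO libraries. This was the largest range of any member. H2bc14 had 501 bp in WT-ND, 341 bp in WT-LID and 0 bp in both Glis3KO libraries, and H4c12 had 1252, 501, 965 and 792 bp. H3c11 was marked only on the ND, with 501 bp in WT and 1097 bp in Glis3KO. H2ac15 had 501, 755, 386 and 501 bp and its divergent partner H2bc15 had 501, 755, 501 and 501 bp, so neither followed genotype. H2ac22 and H2bc22 had 501 bp in Glis3KO-LID only, and H2bc23, H2ac23, H4c17, H4c18 and H2ac24 had no peak in any library.

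All 5 genes of block 2 were marked on the ND in both genotypes, and 3 of 5 in each LID library. The pair H2ac12 and H2bc12 had 1177, 495, 1002 and 0 bp at H2ac12 and 1217, 501, 941 and 0 bp at H2bc12. The pair H2ac11 and H2bc11, a few kilobases away, had the opposite gap, with 1144, 855, 0 and 959 bp at H2ac11 and 1177, 784, 0 and 1002 bp at H2bc11. H4c9 between them had 501, 1191, 768 and 35 bp. The testis-type genes H2bc1 and H2ac1 of block 4 had no H3K4me3, H3K27me3, NKX2.1 or PAX8 peak within 1 kb in any library, although 92.9% of their 50-mers were unique.

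By histone type the H4 genes were the most steadily marked. In each library 9 of 12 H4 genes had a peak, and 8 of the 10 with a peak in at least 1 library had one in all 4, whereas among H2A, H2B and H3 genes it was 13 of 35. One of these H4 genes, H4c9, counted as marked in Glis3KO-LID through only 35 bp of a peak shared with H2ac11 and H2bc11. The number of marked H3 genes was 8, 5, 9 and 3 of 12. H4 windows were also more unique, with a median of 89.3% of 50-mers against 70.0% for H2A, 70.5% for H2B and 77.0% for H3 genes, and the part of this in the result was not tested. In all 11 divergent pairs both genes were marked in the same libraries. Their windows overlap, so the 2 genes of a pair are not separate observations. Merging all overlapping windows left 32 windows, of which 23, 19, 24 and 17 were marked.

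Fewer H3K4me3 bases in both Glis3KO libraries than in both WT libraries were found at 18 of the 45 marked members (40.0%), against 23.6% of all marked genes. The opposite order was found at none of the 45, against 7.54%. The 18 with fewer bases in Glis3KO were 5 members of block 1, 2 of block 2, 9 of block 3 and 2 of block 5 (H2ac21 and H2bc18). H3c1 is among the 9 of block 3 only because the second peak, over H1f1, adds to its WT-ND value. With a difference of at least 200 bp on each diet the count was 13 of 45 (28.9%, against 6.58%), and with a window of 500 bp it was 11 of 42 (26.2%, against 13.0%). In this count of order, whatever its size, the higher share rested on the Glis3KO-ND library. In Glis3KO-LID alone 20 of 45 members (44.4%) lay below both WT libraries, against 49.6% of all marked genes. In Glis3KO-ND alone it was 22 (48.9%), against 33.3%. Loss of a whole peak was more frequent at members on the LID too. Of members marked in either LID library 35.7% lost their peak in Glis3KO and 11.9% gained one, against 6.93% and 2.25% of all genes. Of the 18, 7 members (H3c10, H2bc14, H3c6, H2ac6, H2bc4, H2ac4 and H3c2) were marked in both WT and in neither Glis3KO library, 15.6% of marked members against 0.967% of all marked genes. The reverse state, marked in both Glis3KO and in neither WT library, was found at no member, against 0.435%. Of the 7, only H2ac4 had at least 85% unique 50-mers (87.4%), and the others had 61.4% to 75.7%. Neighbours among these members share peaks, so they are not separate observations. H2ac6 and H2bc4 lay under the same peaks, as did H2ac4 and H3c2. In both WT libraries the peak at H3c10 was that of H2bc13 and H2ac13. These counts were not repeated with overlapping windows merged. Members with at least 85% unique 50-mers had the order at 4 of 17 (23.5%), the same share as all marked genes of that class (23.5%), and members from 50 to 85% had it at 14 of 26 (53.8%), against 27.5%.

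On the ND the median difference between Glis3KO and WT was -300 bp over the 38 members marked in either library, with 29 lower (76.3%) and 7 higher (18.4%), and over all genes it was 0 bp, with 48.5% lower and 44.2% higher. On the LID it was -310 bp over 42 members, with 26 lower (61.9%) and 12 higher (28.6%), and over all genes it was -104 bp, with 67.0% lower and 26.7% higher. On the LID the share of members that were lower was thus not above that of all genes. From WT to Glis3KO 9 of 38 members lost their peak on the ND and 1 gained one, and on the LID 15 of 42 lost and 5 gained one. Over all genes 3.4% lost and 3.84% gained a peak on the ND, and 6.93% and 2.25% on the LID. The order by diet was rarer than by genotype. Fewer bases in both LID than in both ND libraries were found at 3 members (H3c11, H4c4 and H4c2) of 45, against 17.1% of all marked genes, and more at 2 (H2ac10 and H3c8), against 10.8%. An order that follows neither genotype nor diet is given for comparison. WT-ND and Glis3KO-LID were both lower than the other two at 3 members, against 21.4%, and both higher at 7 (H2ac11, H2bc11, H4c8, H2bc6, H4c3, H4c14 and H3c13), against 8.1%.

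**Figure D2:**
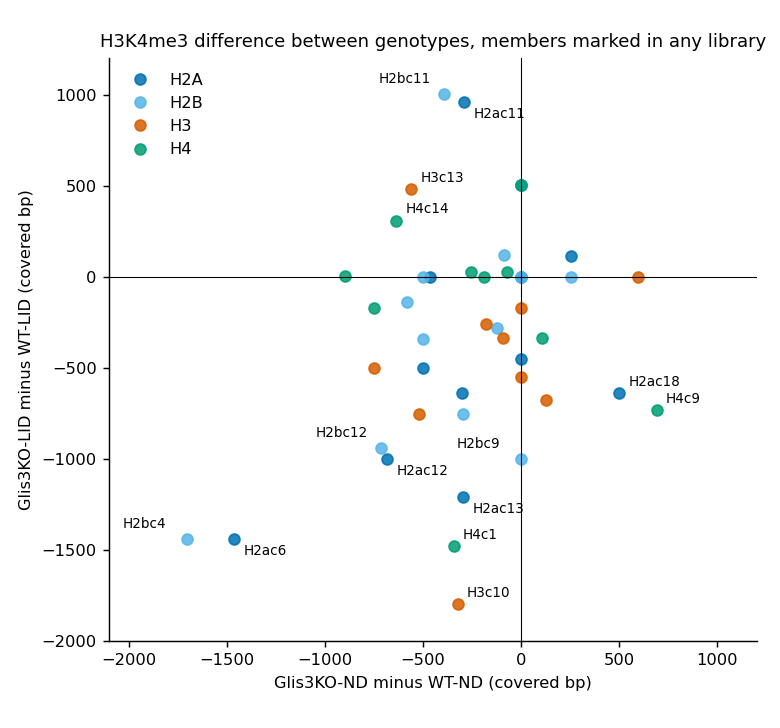
Each point is 1 of the 45 histone genes marked in any library, with the Glis3KO minus WT difference in H3K4me3 covered bases on the ND (x axis) and on the LID (y axis), coloured by histone type; some points coincide. H2bc4 and H2ac6 lie at the lower left, where both diets give fewer bases in Glis3KO, and H2bc11, H2ac11, H4c14, H3c13, H2ac18 and H4c9 lie where the 2 diets give opposite signs.

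The H3K4me3 peaks at histone genes were narrow and broken. The members were covered by 25, 22, 28 and 19 distinct peaks in the 4 libraries. Their median widths were 1177, 824, 819 and 655 bp, against 1633, 1598, 1671 and 1466 bp for peaks at all genes. Peaks of the minimal width of 501 bp made up 28.0%, 27.3%, 35.7% and 36.8% of them, against 2.84%, 2.79%, 2.54% and 3.86% at all genes. At the TSS itself 62.2%, 69.0%, 43.2% and 44.4% of the marked members were covered, while 94.1%, 94.2%, 94.2% and 91.7% of all marked genes were. From the TSS to 250 bp downstream the unique 50-mers of the members fell from 89.0% to 16.6%. Over the same step the covered share of marked members stayed at 62.2% in WT-ND and went from 69.0% to 62.1% in Glis3KO-ND. It went from 43.2% to 62.2% in WT-LID and from 44.4% to 55.6% in Glis3KO-LID. No H3K4me3 peak is narrower than 501 bp, so covered bases can run across a shorter stretch with few unique 50-mers. The part of uniqueness in the coverage along the window was therefore not tested. Across the 57 members the unique share and the mean covered length had a Pearson r of 0.492 and a Spearman rho of 0.469, given as a description because neighbours share peaks.

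**Figure D3:**
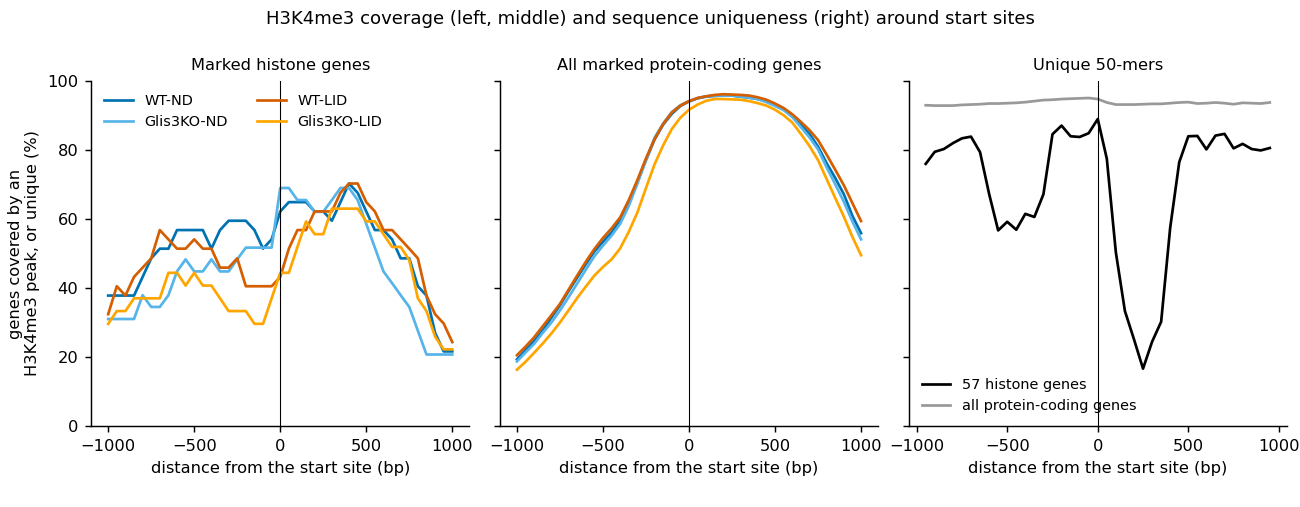
The percent of genes covered by an H3K4me3 peak (left, histone genes marked in that library; middle, all protein-coding genes marked in that library) and the percent of unique 50-mers (right, all 57 histone genes and all protein-coding genes) are plotted against the distance from the TSS in bp, negative being upstream. All marked genes rise to above 90% at the TSS in each library, the histone genes stay near or below 70%, and their unique 50-mers dip to 16.6% in the coding sequence.

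**Figure D4:**
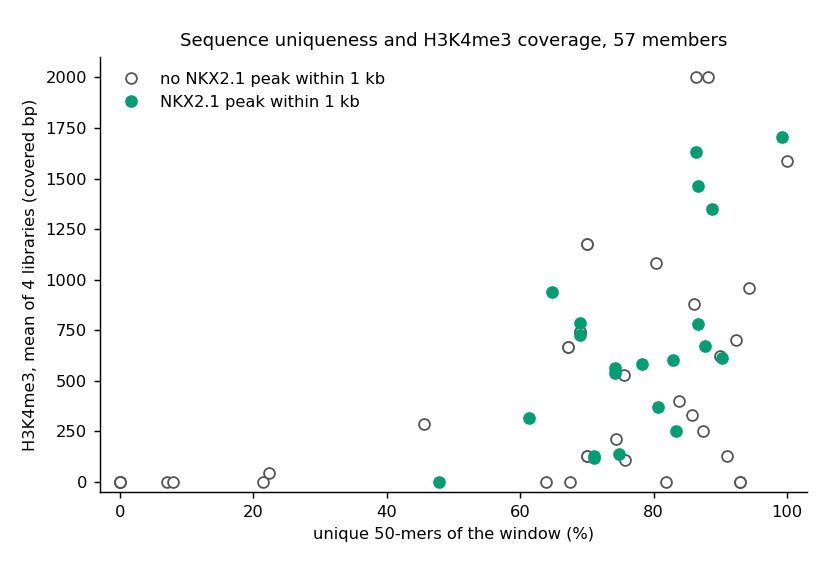
Each point is 1 of the 57 histone genes, with the percent of unique 50-mers in its window (x axis) and the mean H3K4me3 covered bases of the 4 libraries (y axis); filled points have an NKX2.1 peak within 1 kb. Members under 50% unique lie at 0 bp or, at the highest, 285 bp (H2ac18), and members above 85% range from 0 bp to the whole window.

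The members were then compared by uniqueness class with other genes of the same class. With at least 85% unique 50-mers, 17 of 19 members were marked in any library (89.5%, against 70.0% of other genes) and 13 of these in all 4 (76.5%), against 85.7% of other marked genes. From 50 to 85%, 26 of 29 members were marked in any library (89.7%, against 18.2%) and 8 in all 4 (30.8%), against 75.9%. Under 50%, 2 of 9 were marked in any library (22.2%, against 2.43%) and none in all 4. Among members marked in any library, the share marked in all 4 was thus lower in each less unique class. Only 2 marked members had under 50%. In this share the best readable members were nearer to other genes than those from 50 to 85%.

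H3K27me3 was found at few histone genes, a share below that of all genes in each library, but the mark was uncommon over all genes too. It was at 2 of 57 members in WT-ND (3.51%, against 6.06% of all genes) and at 2 in Glis3KO-ND (3.51%, against 8.33%). It was at none in WT-LID (against 6.2%) and at 2 in Glis3KO-LID (3.51%, against 16.9%). In each of the 3 libraries these were the divergent pair H2ac12 and H2bc12 of block 2. H2ac12 had 685, 587, 0 and 599 bp, and H2bc12 had 863, 765, 0 and 777 bp. The peaks were 1001, 1530 and 1001 bp long, and 1001 bp is the narrowest H3K27me3 peak in the lists. The pair also carried H3K4me3 in WT-ND and Glis3KO-ND, but not in Glis3KO-LID. That library had 18040 H3K27me3 peaks against 2631 to 4116 in the others, and when each list was limited to its widest peaks at equal list length its count of members fell to 0.

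The share of histone genes with an NKX2.1 peak was above that of all genes, and the share with a PAX8 peak was below it within 1 and 5 kb but not within 20 kb. An NKX2.1 peak overlapped the 1 kb window of 21 members (36.8%), against 19.5% of all genes, and a PAX8 peak that of 7 members (12.3%), against 27.5%. Within 5 kb there were 39 with NKX2.1 (68.4%, against 33.9%) and 12 with PAX8 (21.1%, against 40.6%), and within 20 kb there were 49 (86.0%, against 58.2%) and 38 (66.7%, against 62.1%). Both factors were within 1 kb of 3 members, H4c8, H2ac21 and H4c14 (5.26%, against 10.7%). Of members marked by H3K4me3 in WT-LID, 18 of 37 had NKX2.1 within 1 kb (48.6%, against 28.7% of marked genes). With at least 85% unique 50-mers 7 of 19 members had an NKX2.1 peak (36.8%), against 21.1% of other genes of that class, and from 50 to 85% it was 13 of 29 (44.8%), against 7.1%. Neighbours shared peaks and some members had more than 1, and 21 distinct NKX2.1 and 6 distinct PAX8 peaks were involved.

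NKX2.1 peaks were concentrated just upstream of the TSS. The midpoint nearest the TSS lay between 250 bp upstream and 50 bp downstream in 15 of 21 members (71.4%), against 39.3% of all genes with an NKX2.1 peak within 1 kb. Its median was -93 bp with quartiles of -157 and -44 bp, while over all genes it was -65 bp with quartiles of -290 and 223 bp. Most of the interval is also among the more unique parts of member windows, with 83.8% to 89.0% unique 50-mers from 250 bp upstream to the TSS. Some stretches further away were about as unique, such as 84.7% at 700 bp downstream. The part of uniqueness in the result was not tested. Block 3 had NKX2.1 at 13 of 24 members, block 5 at 5 of 10, block 1 at 3 of 16, and blocks 2 and 4 at none. By type it was found at 5 H2A, 6 H2B, 6 H3 and 4 H4 genes.

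In block 3 the divergent promoter of H2ac6 and H2bc4 had an NKX2.1 midpoint 147 bp upstream of H2ac6, which is 93 bp upstream of H2bc4, and a further peak inside H2bc4 at 690 bp downstream of its TSS. This is the H2ac6 promoter printed above, with its TATA box, octamer and CCAAT boxes. The promoter of H2ac8 and H2bc8 had 1 midpoint, 36 bp upstream of H2ac8 and 144 bp upstream of H2bc8. Further peaks lay 60 bp upstream of H2bc9, 90 bp upstream of H3c6, 107 bp upstream of H3c3, 109 bp upstream of H2bc3 and 44 bp upstream of H4c2. H3c8 had its midpoint 293 bp and H3c1 424 bp upstream. H3c7 had midpoints 548 bp upstream and 308 bp downstream, and H4c8 had both NKX2.1 (746 bp) and PAX8 (716 bp) downstream, with a further PAX8 midpoint 688 bp upstream. H2ac6, H2bc4 and H3c6 thus had NKX2.1 in the factor library and lacked H3K4me3 in both Glis3KO libraries, while H4c2, H3c3 and H2bc3 had NKX2.1 and were marked in all 4. Of the 20 marked members with NKX2.1, 8 had fewer H3K4me3 bases in both Glis3KO libraries, and of the 25 without it 10 did.

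In block 1 the NKX2.1 midpoint between H2ac15 and H2bc15 lay 7 bp upstream of H2ac15 and 157 bp upstream of H2bc15, with another 727 bp downstream of H2bc15, and H4c11 had 1 at 459 bp downstream. PAX8 lay 106 bp upstream of H3c10, and the same peak, with its midpoint 1110 bp downstream of H2ac13, reached into that window. In block 5 H4c14 had NKX2.1 and PAX8 midpoints 58 and 54 bp upstream, nearly on the same base. H2ac21 had PAX8 17 bp and NKX2.1 369 bp upstream, H2ac20 had PAX8 at 668 bp upstream and 1012 bp downstream, and H2bc21 had PAX8 476 bp downstream. NKX2.1 lay 81 bp upstream of H3c13, 196 bp upstream of H2bc18 and 235 bp upstream of H2ac19. H2ac19 was the only member with an NKX2.1 peak and no H3K4me3 in any library, and 47.8% of its 50-mers were unique.

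Of the 21 distinct NKX2.1 peaks at members, 2 overlapped a PAX8 peak (9.52%), against 36.8% of NKX2.1 peaks at all promoters. An H3K4me3 peak overlapped 13 (61.9%), 8 (38.1%), 14 (66.7%) and 7 (33.3%) of them in the 4 libraries, against 81.5%, 81.2%, 82.1% and 75.7% at all promoters. Of the 6 PAX8 peaks at members 5, 4, 6 and 5 overlapped H3K4me3 in the 4 libraries, against 86.2%, 85.9%, 86.7% and 81.7% at all promoters. The NKX2.1 motif was present in 3 of the 21 NKX2.1 peaks (14.3%), against 29.8% of those at all promoters and 35.9% of all NKX2.1 peaks. A CCAAT box was present in 15 of the 21 (71.4%), against 35.0% of NKX2.1 peaks at all promoters. Member promoters held it as often without NKX2.1. It was in 14 of 17 matched promoters with NKX2.1 within 1 kb (82.4%) and in 29 of 34 without (85.3%). The PAX8 motif was found in 1 of the 6 PAX8 peaks, against 18.7% at all promoters.

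Genes that work with the histone genes were marked more steadily than the members. A peak in all 4 libraries was found at 46.7% of marked members, but at 85.4% of all marked genes. Windows of the genes listed here were also more unique, with medians per list of 96.7% to 100% of 50-mers, against 74.8% for the members. For marked members with at least 85% unique 50-mers the share with a peak in all 4 was 76.5%. The part of uniqueness in the contrast was not tested. Of the 6 linker histone genes on chromosome 13, 5 were marked in all 4 libraries, and their summed H3K4me3 was 6735, 6706, 6756 and 6541 bp. The exception was the testis-type H1f6, marked in Glis3KO-ND (501 bp) and WT-LID (655 bp). Of 12 histone genes listed as replication-independent, which supply variants such as H2A.Z and H3.3 outside S phase, 11 were marked in all 4. The exception was H2bu2, an H2B gene on chromosome 11, with 1546, 760, 0 and 0 bp. Whether H2bu2 is replication-independent was not examined. All 10 genes of histone mRNA processing and decay, among them Slbp, and 9 of 10 genes of histone gene transcription, among them Npat, were marked in all 4. The exception was Nfyc, with no peak at its most upstream TSS in any library. Among 8 histone chaperone genes 7 were marked in all 4, and Asf1b had 1563, 1557, 1879 and 0 bp. NKX2.1 was within 1 kb of 2 linker, 2 replication-independent, 2 transcription, 3 processing and 2 chaperone genes, against 19.5% of all genes. Hfe and 5 linker genes lie inside the blocks, and 5 of these 6 genes were marked in all 4 libraries.

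The lists held 15692 to 17044 H3K4me3 peaks, and Glis3KO-LID had the fewest and covered the least (22557931 bp against 25435417 to 26726020 bp). They hold no scores and no read counts, so the depth is unknown. As a check of the tissue, 8 of 10 follicular cell markers were marked in all 4 libraries, but Tg, which encodes thyroglobulin, had 0 bp in both WT libraries and 1056 and 1091 bp in Glis3KO-ND and Glis3KO-LID. None of 5 immune and 4 skeletal muscle markers was marked in any library, and of 4 endothelial, 4 C cell, 4 fibroblast, 3 parathyroid and 3 erythroid markers 2, 2, 0, 0 and 1 were marked in all 4. Of 8 proliferation genes, 7 were marked in all 4, with summed lengths of 9266, 9166, 10476 and 7737 bp, and Top2a had 1027, 1432, 1320 and 0 bp. Fewer bases in both Glis3KO libraries than in both WT libraries were found at 4 of these 8 and more at none, against 23.6% and 7.54% of all marked genes. At Cdk1 (1197, 1184, 1359 and 1179 bp) and Ccnb1 (1136, 1055, 1354 and 1085 bp) the genotypes were only just apart. They were further apart at Pcna (1606, 1402, 1825 and 899 bp) and Rrm2 (1289, 1025, 1707 and 1014 bp). The share of dividing cells in each gland was not measured here, and fewer marked cells and less mark per cell cannot be told apart in whole glands.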

How the data were processed

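Of the 21 mouse and rat samples, the 10 mouse libraries with a peak list of their own were used: 4 of H3K4me3, 4 of H3K27me3, NKX2.1 and PAX8. The authors used Cutadapt 1.12 to remove adapters, Bowtie 1.2 to map single-end reads to mm10, of which only unique hits were accepted, and Picard 1.110 to discard duplicates. Peaks were called by them in each library with HOMER 4.10.3, for factors against the matching input. The NKX2.1 and PAX8 lists used here held 46636 and 51586 peaks, more than the study reports for each factor. The reason for this difference is not known. Bedtools 2.24.0 is named in the submitters' processing notes. Not given in the sources used here are the read length and whether an input entered the histone calls. The deposited values are peak positions without a score, so depth is unknown and no confidence interval or threshold could be applied. The lists merged over samples and the rat lists were not used here.

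Starts were converted to a count from 1. A gene's main TSS was its most upstream curated RefSeq start on GRCm38.p6, and covered bases were counted over 1 kb either side. A gene was called marked or bound when a peak overlapped that window by at least 1 bp. Unique 50-mers were counted on both strands of the assembled chromosomes. Calculations used Python 3.11.15, numpy 2.4.6, pandas 2.3.3, numba 0.67.0 and matplotlib 3.10.9, and the counting of bases and of 50-mers was tested on simulated data. Members, lists and rules were chosen with earlier results of these data known. Named with values were members unmarked in at least 1 library, the 10 largest ranges, members with an H3K27me3, NKX2.1 or PAX8 peak, members of a cluster of under 5 and the 5 highest and 5 lowest means. H2bc13, H4c12, H4c3 and H4c4 fell outside this rule and were named after their values were seen. The alternatives changed the window, the TSS, the overlap, the list length and the way neighbours were counted.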

Additional observations from a re-analysis of the deposited data

Results flagged for a closer look

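At 6 members the Glis3KO and WT libraries differed by at least 200 bp of H3K4me3 in opposite directions on the 2 diets. With 1 library per group these differences were not tested. The Glis3KO minus WT difference at H4c9 was 690 bp on the ND and -733 bp on the LID. At the divergent pair next to it, H2ac11 had -289 bp and 959 bp, and H2bc11 had -393 bp and 1002 bp, for the ND and the LID respectively. H2ac18, with 45.6% unique 50-mers, had 501 bp on the ND and -638 bp on the LID. H4c14 had -637 bp on the ND and 308 bp on the LID, and H3c13, in the same cluster, had -560 bp and 482 bp.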

How the results depend on the processing

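Of 73 alternatives tried over 15 counts and mean coverages, 55 stayed within 1.5 times the reported value and on the same side of the share of all genes, where that was compared, 12 moved further and 6 changed side. Members marked with 500 bp either side were 34 in WT-ND and 32 in WT-LID, now below the share of all genes. When the TSS base itself had to be covered, the marked members were 23 in WT-ND, 16 in WT-LID and, for the knockout on the LID, 12, all below the share of all genes. With overlapping windows merged they were 23 and 19 in WT and Glis3KO on the ND and 24 and 17 on the LID. The mean share of the window covered in Glis3KO-LID was 13.4% with 2 kb either side, against 20.6% with 1 kb. H3K27me3 in Glis3KO-LID was at 5 members within 5 kb and at 0 at equal list length. Members with fewer bases in both Glis3KO libraries numbered 11 with 500 bp either side, against 18. NKX2.1 was at 39 members within 5 kb and 49 within 20 kb, and PAX8 at 12 and 38, the last a share above that of all genes. Alternatives chosen after seeing the data left out members of under 50% unique 50-mers (18 members with fewer bases in both Glis3KO libraries), the Glis3KO-LID library (22) or the Glis3KO-ND library (20, now a share below that of all genes). No paired analysis was possible because each of the 4 groups of genotype and diet has 1 library and so no second replicate number. A fit of genotype with the diets as pairs was not made. Without replicates or scores the lists show neither the spread between animals nor how strong a peak is.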
